A study of Mus musculus with 12 samples.

Results

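A set of 8 genes that regulate mTORC1, the protein kinase complex that couples growth and protein synthesis to nutrient supply, were followed in mouse liver. They are Ddit4, Sesn1, Sesn2, Sesn3, Eif4ebp1, Deptor, Flcn and Rragd, chosen by symbol, and they lie at 9 of the 27109 loci of the authors' deposited gene table. Flash-frozen livers of C57BL/6 mice were sequenced as poly(A) RNA in 12 libraries, 3 in each of 4 groups. LsATF4-KO mice, in which Atf4 is deleted in the liver, received tunicamycin at 1 mg/kg; wild-type mice received the same dose; LsATF4-KO mice received 0.3% DMSO; and wild-type mice received 0.3% DMSO, all by intraperitoneal injection 6 h before collection. The labels used here do not state which promoter drives the deletion, which exons are deleted, or the age and sex of the mice. Tunicamycin blocks N-glycosylation and so causes protein misfolding in the endoplasmic reticulum (ER), and ATF4 is the transcription factor made when eIF2 is phosphorylated under such stress.

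Each gene has 1 pooled expression value per group, in FPKM (fragments per kilobase of transcript, scaled to the mapped fragments of the library), with no value per library, so no spread between livers can be given and the depth per library is unknown. A locus was called changed where the authors' deposited Cuffdiff q, adjusted over all tests of all comparisons, was under 0.05. Intervals of 95% were computed from the deposited fold and test statistic. Nothing says that the 3 libraries of a group came from separate animals, so the p-values measure the spread between those libraries, which may be technical. Values are for bulk liver, where fewer cells of a type and less RNA per cell cannot be told apart.

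mTORC1 is switched on at the lysosome, where amino acids act through the Rag GTPases and growth factors through the GTPase Rheb. DDIT4, also called REDD1, lowers mTORC1 activity through the TSC complex, which inactivates Rheb, while the sestrins act on the amino acid branch by binding GATOR2, and DEPTOR binds mTOR itself. 4E-BP1, encoded by Eif4ebp1, acts downstream: when mTORC1 leaves it unphosphorylated, it holds the cap-binding protein eIF4E and limits translation initiation. FLCN (folliculin) activates RagC and RagD by promoting GTP hydrolysis and RRAGD is the RagD GTPase, so neither is a plain inhibitor of the complex. In mammalian cells, Ddit4, Sesn2 and Eif4ebp1 are known targets of ATF4.

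The libraries stand as follows. Sequencing lane was shared by 9 libraries (lane 4), whereas the 3 knockout DMSO libraries ran on lane 5, and in comparisons that use the knockout DMSO livers an effect of lane cannot be told apart from one of group. Atf4 shares its locus with Cacna1i in the deposited table, and that locus had 114 FPKM in knockout and 356 FPKM in wild-type livers after tunicamycin, against 22.8 FPKM in knockout and 46.9 FPKM in wild-type livers after DMSO, a merged value from which the extent of the deletion cannot be read. Of 6 hepatocyte markers, Apoa1, Ttr, Hnf4a and Tat were above 1 FPKM in every group, while Alb was listed at 0 in every group and Serpina1b, which shares its locus with Serpina1d, in both DMSO groups. Each 0 has the deposited status for too much data and is a failed estimate; after tunicamycin Serpina1b had 1881 FPKM in knockout and 2221 FPKM in wild-type livers. Markers of other tissues were high in the knockout tunicamycin livers: 8 of 8 skeletal muscle genes were at or above 1 FPKM there, and their sum was 302 FPKM, against 1.56 to 4.64 FPKM in the other groups. The 6 adrenal cortex genes summed to 1263.5 FPKM there, against 6.76 to 23.4 FPKM, and the 5 fat genes to 111 FPKM, against 0.337 to 3.80 FPKM. Against wild-type livers under tunicamycin, 6 of 8 muscle, 3 of 6 adrenal and 1 of 4 tested fat genes were called higher. Star, at 232 FPKM in knockout and 1.07 FPKM in wild-type livers, was among those not called (deposited q = 0.225). Which of the 3 knockout libraries carried these transcripts cannot be read from pooled values. Sums over markers of other liver cells ran from 38.2 to 67.3 FPKM for 6 sinusoidal endothelial genes, from 19.7 to 27.7 FPKM for 6 stellate genes and from 90.0 to 115 FPKM for 5 Kupffer cell genes, and none of the endothelial, stellate and Kupffer markers matched was at 0 in any group.

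The label under which the genes were grouped, stress-induced brakes, held for part of the group. In wild-type livers tunicamycin raised 3 of the 8 genes (Ddit4, Sesn2 and Eif4ebp1), lowered 3 (Sesn1, Sesn3 and Flcn) and left 2 (Deptor and Rragd) without a call. All 8 were tested. Across all 14998 loci tested in that comparison, 37.1% were called, 18.1% higher and 19.0% lower. In LsATF4-KO livers tunicamycin raised 2 of the 8 (Ddit4 and Sesn2), lowered 1 (Flcn) and left 5 without a call, where 33.0% of 15534 loci were called, 18.1% higher and 14.8% lower. The median log2 fold of the 8 genes was 0.21 in wild-type and 0.39 in knockout livers, against -0.02 and 0.01 over all loci with a finite fold.

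**Figure D1:**
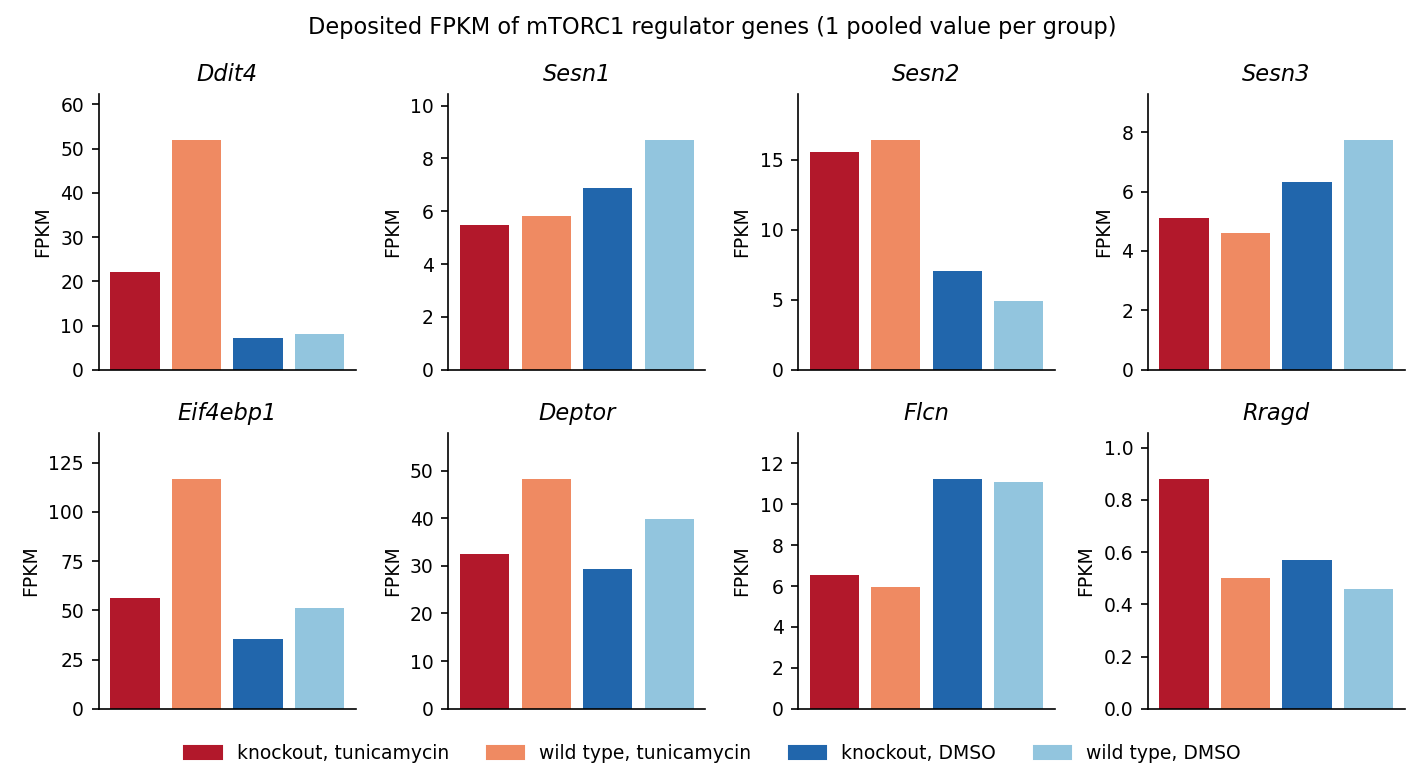
Deposited FPKM of the 8 genes, 1 panel per gene with its own axis from 0. Bars are the pooled values of knockout and wild-type livers after tunicamycin and of knockout and wild-type livers after DMSO, with no error bars because 1 value per group was deposited. Ddit4 stands at 52.0 FPKM in wild-type livers after tunicamycin and 22.1 FPKM in knockout livers after tunicamycin, and Flcn is lower in both tunicamycin groups.

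Ddit4, the TSC-dependent inhibitor, rose most of the 8. It lies on mm9 chr10:59412413-59414584, and its level was 22.1 FPKM in knockout and 52.0 FPKM in wild-type livers after tunicamycin, against 7.15 FPKM in knockout and 8.12 FPKM in wild-type livers after DMSO. The wild-type tunicamycin livers were the highest and the knockout tunicamycin livers lay between them and both DMSO groups. In the authors' deposited table tunicamycin raised Ddit4 by a log2 of 2.68 in wild-type livers (95% interval 2.25 to 3.11; q = 0.000396), a 6.40-fold rise. In knockout livers the rise in the authors' deposited table was 1.63 (1.18 to 2.08; q = 0.000396), or 3.09-fold. By size, Ddit4 was number 240 of the 2669 loci with a finite fold called higher in wild-type livers, and number 776 of 2762 in knockout livers.

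The sequence before the start of Ddit4 is shown because the gene rose in both genotypes, and the capitals mark the CCAAT boxes, the binding site of the factor NF-Y, which here lie on the opposite strand and so read ATTGG. The 250 bases before the transcription start, on the minus strand at chr10:59951771-59952020 of GRCm38.p6 as annotated by RefSeq, were as follows.
Ddit4: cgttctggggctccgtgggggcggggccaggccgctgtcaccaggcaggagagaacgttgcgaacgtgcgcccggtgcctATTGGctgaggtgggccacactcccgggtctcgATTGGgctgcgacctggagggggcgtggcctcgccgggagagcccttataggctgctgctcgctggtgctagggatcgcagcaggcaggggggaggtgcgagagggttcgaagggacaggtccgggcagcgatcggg
The boxes began 170 and 137 bases before the start. Promoters were found for 6 of the 8 genes in the RefSeq table, as 7 windows of 300 bases (250 before and 50 after a start), and both strands of 32851 such windows were searched. CCAAT was in 37.4% of all windows and in those of Ddit4, Sesn1, Sesn2 and Sesn3. The C/EBP-ATF composite element, spelled TGATGNAA and bound by ATF4 with C/EBP partners, was in 3.97% of all windows and in none of the 6 genes, which says only that these letters are not in these windows. The AP-1 site TGANTCA (7.81% of windows) and the E-box CACGTG (7.15%) were also in none of the 6. The same held for the ER stress element (0.119%), which contains a CCAAT box. The forkhead site GTAAACA (3.65%) was in 1 of the 2 windows of Sesn1, where it lay after the start.

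Among the sestrins, the leucine-binding sensor Sesn2 rose with tunicamycin while Sesn1 and Sesn3 were lower. Sesn2, on mm9 chr4:132047958-132066410, had 15.5 FPKM in knockout and 16.4 FPKM in wild-type livers after tunicamycin, against 7.03 FPKM in knockout and 4.89 FPKM in wild-type livers after DMSO. Both tunicamycin groups were above both DMSO groups. The rise in the authors' deposited table was 1.75 on the log2 scale in wild-type livers (1.33 to 2.16; q = 0.000396), or 3.36-fold. In knockout livers it was 1.14 in the authors' deposited table (0.74 to 1.54; q = 0.000396), or 2.21-fold.

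The 250 bases before the Sesn2 start, on the minus strand at chr4:132510457-132510706 of GRCm38.p6 (RefSeq), are given beside those of Ddit4, since both genes rose in both genotypes. Capitals again mark CCAAT boxes on the opposite strand, here beginning 157 and 93 bases before the start. The windows of Sesn1 and Sesn3, which fell in wild-type livers, hold such boxes on that strand too. CCAAT was in 37.4% of all windows, so the boxes are not particular to the genes that rose.
Sesn2: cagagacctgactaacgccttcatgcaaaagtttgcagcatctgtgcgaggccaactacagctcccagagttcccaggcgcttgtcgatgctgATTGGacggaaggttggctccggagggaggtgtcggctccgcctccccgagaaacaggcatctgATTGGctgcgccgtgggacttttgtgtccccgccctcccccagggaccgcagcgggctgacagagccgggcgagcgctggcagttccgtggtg

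Sesn1, on mm9 chr10:41530379-41628242, is known as a target of p53 and FOXO factors. It had 5.46 FPKM in knockout and 5.82 FPKM in wild-type livers after tunicamycin, against 6.88 FPKM in knockout and 8.72 FPKM in wild-type livers after DMSO. It fell by 0.58 on the log2 scale in wild-type livers in the authors' deposited table (q = 0.0396, not called at a q under 0.01), and its fold of -0.33 in knockout livers was not called (q = 0.331). Sesn3, a FOXO target on mm9 chr9:14080744-14137549, had 5.12 FPKM in knockout and 4.61 FPKM in wild-type livers after tunicamycin, against 6.33 FPKM in knockout and 7.75 FPKM in wild-type livers after DMSO. In the authors' deposited table Sesn3 fell by 0.75 in wild-type livers (q = 0.00822), and its fold of -0.30 in knockout livers was not called (q = 0.374). For both genes the wild-type DMSO livers held the highest value of the 4 groups.

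The summed FPKM of the 3 sestrins moved less than their makeup. The sum was 26.1 FPKM in knockout and 26.9 FPKM in wild-type livers after tunicamycin, against 20.2 FPKM in knockout and 21.4 FPKM in wild-type livers after DMSO. Sesn2 made up 59.5% of it in knockout and 61.2% in wild-type livers after tunicamycin, against 34.7% in knockout and 22.9% in wild-type livers after DMSO. Sesn2 was thus the least abundant sestrin in wild-type DMSO livers and the most abundant in both tunicamycin groups, on a scale corrected for length. In knockout DMSO livers it was already the most abundant, at 7.03 FPKM against 6.88 FPKM for Sesn1 and 6.33 FPKM for Sesn3.

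**Figure D2:**
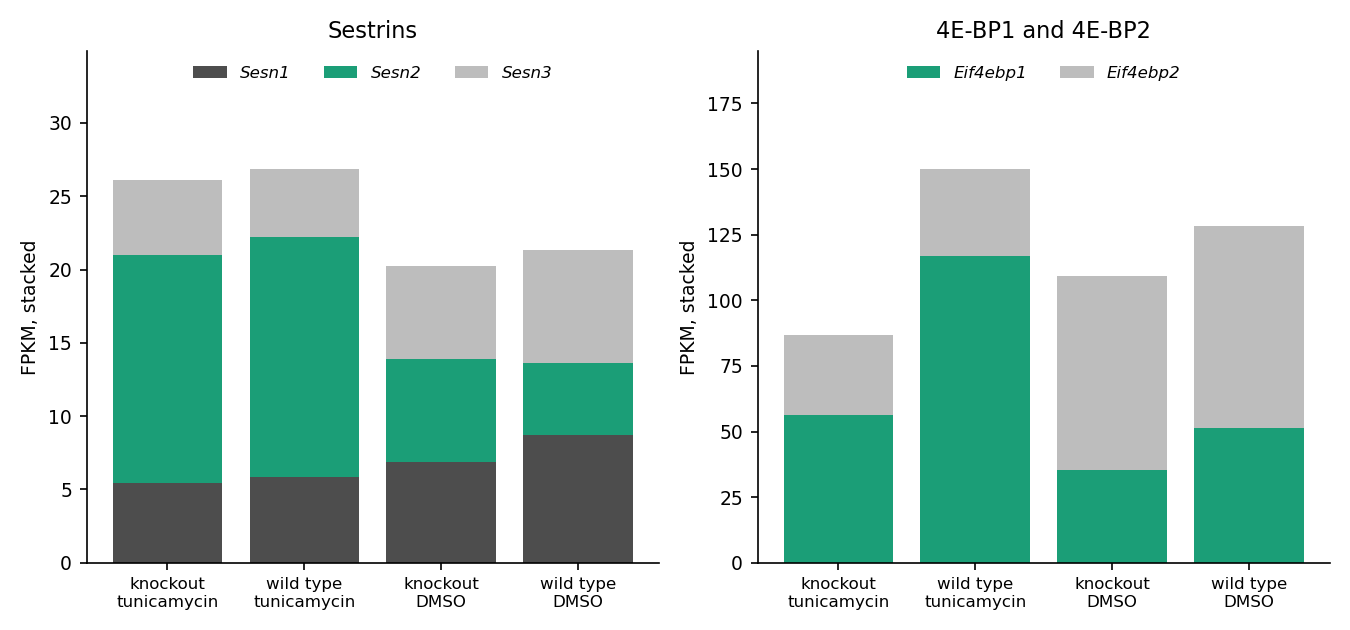
Makeup of the sestrins and of the eIF4E-binding proteins in deposited FPKM, stacked for knockout and wild-type livers after tunicamycin and after DMSO. Sesn2 makes up 61.2% of the sestrin sum in wild-type tunicamycin livers and 22.9% in wild-type DMSO livers, and Eif4ebp1, at its more abundant locus, makes up 77.9% of Eif4ebp1 plus Eif4ebp2 in wild-type tunicamycin livers and 40.0% in wild-type DMSO livers.

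Eif4ebp1, the translational repressor 4E-BP1, was the most abundant of the 8 in every group. It lies on mm9 chr8:28370798-28425501, an interval that the table gives to a pair of loci with the same symbol. The more abundant locus had 56.4 FPKM in knockout and 117 FPKM in wild-type livers after tunicamycin, against 35.4 FPKM in knockout and 51.4 FPKM in wild-type livers after DMSO. The wild-type tunicamycin livers stood above the other groups. Its rise in wild-type livers was 1.19 on the log2 scale in the authors' deposited table (0.66 to 1.71; q = 0.000396), or 2.28-fold. In knockout livers the fold of 0.67 in the authors' deposited table (0.11 to 1.23; p = 0.0186) was not called after adjustment (q = 0.0688).

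The other Eif4ebp1 locus had 42.9 FPKM in knockout and 90.9 FPKM in wild-type livers after tunicamycin, against 22.0 FPKM in knockout and 38.7 FPKM in wild-type livers after DMSO. Its order of groups was the same, and in the authors' deposited table tunicamycin raised it by 1.23 in wild-type livers (q = 0.0361), while its fold of 0.97 in knockout livers was not called (q = 0.169). The table gives no strand. Among the loci next to each in the table's order that could be matched to an annotated strand, 82 of 82 were on the plus strand, where Eif4ebp1 is annotated, for the more abundant locus and 90 of 90 on the minus strand for the other, so reads of one gene may be divided between them. The interval is also shared with Gm9731, listed at 0.

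The related repressor Eif4ebp2 moved the other way. It had 30.4 FPKM in knockout and 33.1 FPKM in wild-type livers after tunicamycin, against 74.0 FPKM in knockout and 76.9 FPKM in wild-type livers after DMSO, and in the authors' deposited table it fell, with log2 folds of -1.28 in knockout and -1.22 in wild-type livers (q = 0.000396 each). Eif4ebp1 at its more abundant locus made up 65.0% of the summed FPKM of Eif4ebp1 and Eif4ebp2 in knockout and 77.9% in wild-type livers after tunicamycin, against 32.4% in knockout and 40.0% in wild-type livers after DMSO. With both Eif4ebp1 loci summed the shares were 76.6% and 86.3% in knockout and wild-type livers after tunicamycin, against 43.7% and 53.9% in knockout and wild-type livers after DMSO, so which of the pair is the more abundant in wild-type DMSO livers depends on how the loci are counted. The target of both, Eif4e, had 26.4 FPKM in knockout and 27.2 FPKM in wild-type livers after tunicamycin, against 13.4 FPKM in knockout and 16.1 FPKM in wild-type livers after DMSO. The ratio of Eif4ebp1 to Eif4e was 2.14 in knockout and 4.30 in wild-type livers after tunicamycin, against 2.63 in knockout and 3.18 in wild-type livers after DMSO. With both Eif4ebp1 loci summed it was 3.76 in knockout and 7.65 in wild-type livers after tunicamycin, against 4.27 in knockout and 5.58 in wild-type livers after DMSO. Eif4ebp3 shares its locus with Ankhd1 and was left out of these sums.

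Deptor, the mTOR-binding inhibitor, showed no called response to tunicamycin. It lies on mm9 chr15:54931471-55090830 and had 32.4 FPKM in knockout and 48.3 FPKM in wild-type livers after tunicamycin, against 29.3 FPKM in knockout and 39.8 FPKM in wild-type livers after DMSO. Its log2 fold with tunicamycin in the authors' deposited table was 0.28 in wild-type (q = 0.378) and 0.15 in knockout livers (q = 0.697). Both knockout groups were below both wild-type groups. Gm9920 shares its interval.

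Flcn, the activator of RagC and RagD, was lower with tunicamycin in both genotypes. It lies on mm9 chr11:59604814-59623541 and had 6.52 FPKM in knockout and 5.95 FPKM in wild-type livers after tunicamycin, against 11.3 FPKM in knockout and 11.1 FPKM in wild-type livers after DMSO. The 2 tunicamycin groups were alike in level and so were both DMSO groups, and in the authors' deposited table the gene fell, with log2 folds of -0.79 in knockout (q = 0.000396) and -0.90 in wild-type livers (q = 0.000396). Rragd, on mm9 chr4:33069972-33109155, was the least abundant of the 8, with 0.882 FPKM in knockout and 0.502 FPKM in wild-type livers after tunicamycin, against 0.571 FPKM in knockout and 0.457 FPKM in wild-type livers after DMSO. Its log2 fold with tunicamycin in the authors' deposited table was 0.63 in knockout (q = 0.193) and 0.14 in wild-type livers (q = 0.870). All of its values were under 1 FPKM.

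The window of Flcn is shown as the 1 member window with a full cAMP response element, TGACGTCA, the palindrome bound by CREB and ATF family dimers. The element, in capitals, spans 49 to 42 bases before the start, in the 250 bases on the minus strand at chr11:59810040-59810289 of GRCm38.p6 (RefSeq).
Flcn: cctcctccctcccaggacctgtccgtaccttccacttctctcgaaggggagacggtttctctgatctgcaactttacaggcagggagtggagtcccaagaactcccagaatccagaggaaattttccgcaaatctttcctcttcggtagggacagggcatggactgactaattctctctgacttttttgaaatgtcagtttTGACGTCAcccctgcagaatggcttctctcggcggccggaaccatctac
TGACGTCA was in 1.79% of all 32851 windows, and TGACGT, which it contains, in 7.51%.

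**Figure D3:**
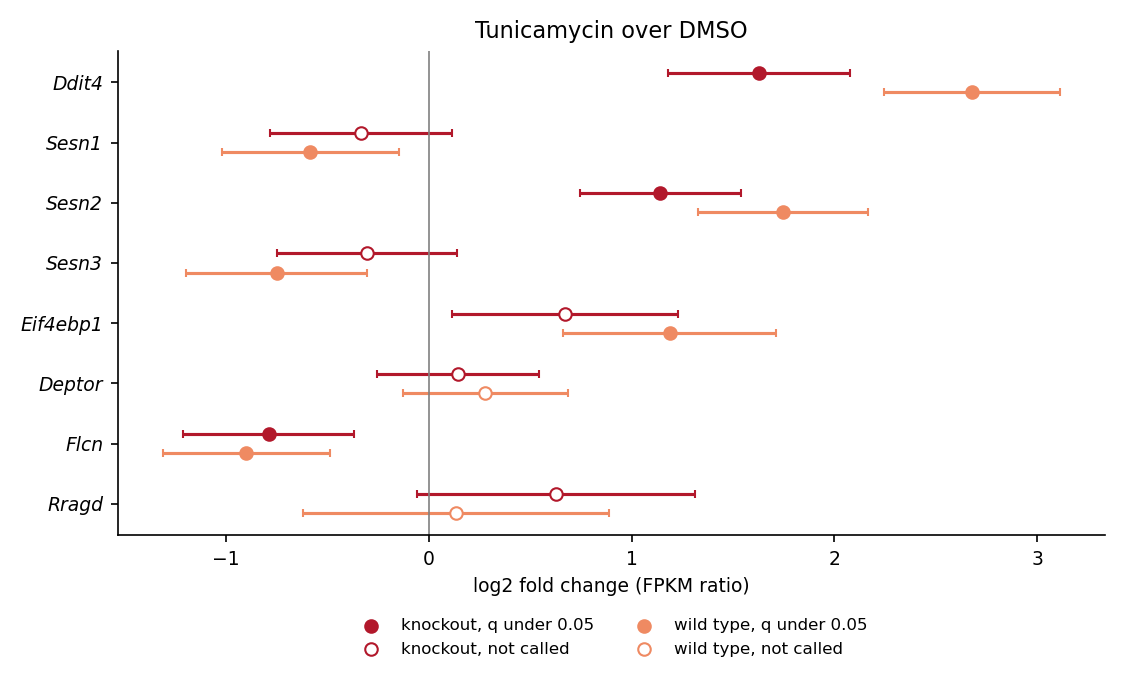
Response of the 8 genes to tunicamycin as the deposited log2 fold of tunicamycin over DMSO, in knockout and in wild-type livers. Points are the deposited folds, filled where q was under 0.05, and lines are 95% intervals from the deposited test statistic. Ddit4 lies at 1.63 in knockout and 2.68 in wild-type livers, and the points of Flcn, at -0.79 in knockout and -0.90 in wild-type livers, nearly coincide.

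The order of the genes by level changed with tunicamycin. In wild-type livers after tunicamycin it was Eif4ebp1, Ddit4, Deptor, Sesn2, Flcn, Sesn1, Sesn3 and Rragd, against Eif4ebp1, Deptor, Flcn, Sesn1, Ddit4, Sesn3, Sesn2 and Rragd in wild-type livers after DMSO. In knockout livers after tunicamycin Deptor stood above Ddit4 and the rest kept the wild-type tunicamycin order. In knockout livers after DMSO the order was Eif4ebp1, Deptor, Flcn, Ddit4, Sesn2, Sesn1, Sesn3 and Rragd. With 1 value per group, whether neighbours in these orders differ beyond their spread cannot be given.

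In tunicamycin-treated livers 3 of the 8 genes, namely Ddit4, Eif4ebp1 and Deptor, were lower in the knockout than in the wild type, and none was called higher. Of 14919 loci tested in that comparison 5.92% were called, 3.73% higher and 2.19% lower in the knockout. Ddit4 was lower by a log2 of -1.24 in the authors' deposited table (-1.63 to -0.84; q = 0.000396), number 56 by size of the 325 loci called lower with a finite fold. Eif4ebp1 at its more abundant locus had a fold of -1.05 in the authors' deposited table (-1.57 to -0.53; q = 0.000396) and was number 77. At the other Eif4ebp1 locus the fold in the authors' deposited table was -1.08 and was not called (q = 0.0571). Deptor had the smallest of the 3, -0.57 in the authors' deposited table (-0.98 to -0.17; q = 0.0293), number 265 of 325. Its call was lost with q adjusted within that comparison and with q under 0.01, which leaves 2 genes called.

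The other 5 genes were not called between genotypes under tunicamycin. Sesn2 had a log2 fold of -0.08 in the authors' deposited table (-0.46 to 0.30; q = 0.843), an interval that leaves out a fall as large as that of Ddit4. Sesn1 had -0.09 (q = 0.855), Sesn3 0.15 (q = 0.748) and Flcn 0.13 (q = 0.756) in the authors' deposited table. Rragd had 0.81 (0.11 to 1.51) with a p of 0.0238 that did not pass adjustment (q = 0.0840) in the authors' deposited table. The muscle, adrenal and fat markers that were high in the knockout tunicamycin livers, summing to 302, 1263.5 and 111 FPKM there against 4.64, 23.4 and 0.378 FPKM in wild-type tunicamycin livers, move with this comparison, and their part in it was not tested. Of 5 hepatocyte markers tested in this comparison, Hnf4a was called lower in the knockout (-0.63, deposited q = 0.0339) and 4 were not called. The median log2 fold of the 5 was -0.24, and the part of this was not tested either.

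In DMSO-treated livers none of the 8 genes was called between knockout and wild type, where 2.86% of 14788 loci were, 1.39% higher and 1.47% lower in the knockout. At an unadjusted Cuffdiff p under 0.05 there were 2, Sesn2 and Deptor. Sesn2 had a log2 fold of 0.52 in the authors' deposited table (0.09 to 0.95; p = 0.0159; q = 0.0606) and Deptor -0.44 (-0.84 to -0.04; p = 0.0296; q = 0.0999). For the rest the folds in the authors' deposited table were -0.18 for Ddit4 (q = 0.682), -0.54 for Eif4ebp1 (q = 0.183), -0.34 for Sesn1 (q = 0.284), -0.29 for Sesn3 (q = 0.328), 0.02 for Flcn (q = 0.967) and 0.32 for Rragd (q = 0.618). The 6 sinusoidal endothelial markers summed to 67.3 FPKM in knockout and 38.2 FPKM in wild-type DMSO livers, each of the 6 being higher in the knockout, and the part of this and of the lane in the DMSO comparison was not tested.

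**Figure D4:**
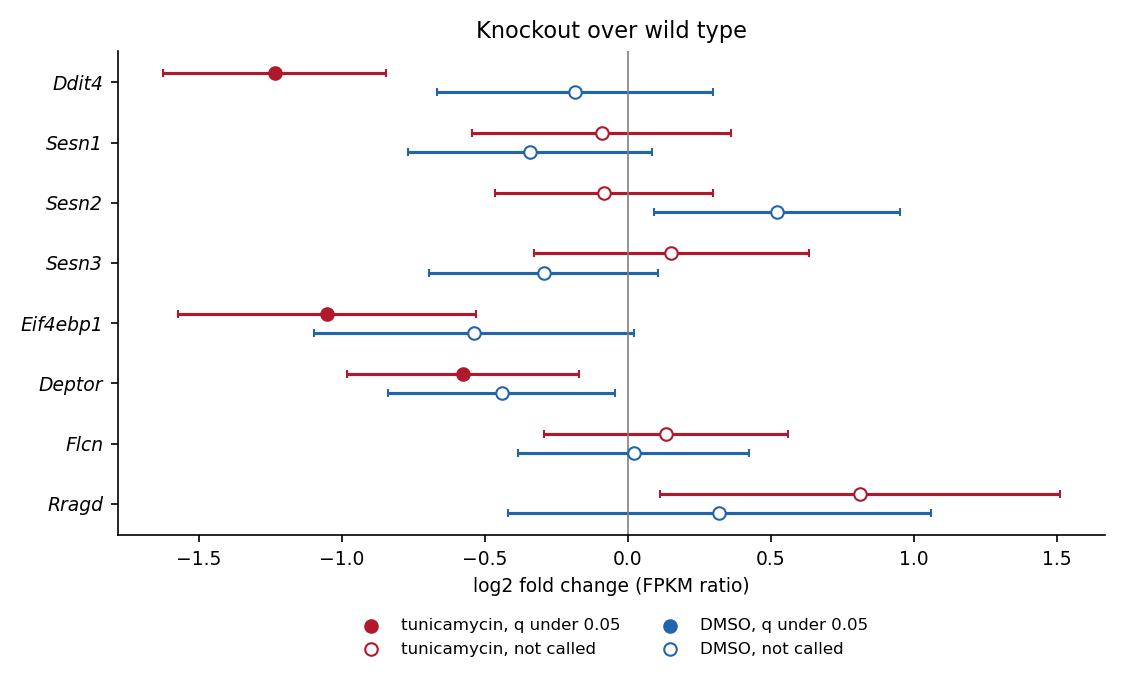
Deposited log2 fold of knockout over wild type for the 8 genes, under tunicamycin and under DMSO. Points are filled where the deposited q was under 0.05 and lines are 95% intervals from the deposited test statistic. Under tunicamycin Ddit4 (-1.24), Eif4ebp1 (-1.05) and Deptor (-0.57) are filled, and under DMSO no point is.

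Whether the tunicamycin response itself differed between the genotypes was tested as the knockout response minus the wild-type response, with a z test on the authors' deposited statistics over all 14510 loci that allowed it and Benjamini-Hochberg adjustment, which called 1.03% of them. None of the 8 was called, and 2 had an unadjusted p under 0.05. By that test on the authors' deposited statistics the Ddit4 response differed by -1.05 on the log2 scale (-1.67 to -0.43; p = 0.000968; adjusted p = 0.0856). From the authors' deposited statistics the difference for Sesn2 was -0.60 (-1.18 to -0.03; p = 0.0399; adjusted p = 0.848). Eif4ebp1, which was called with tunicamycin in wild-type and not in knockout livers, had a difference of -0.52 from the authors' deposited statistics (adjusted p = 1.00), so its response is not shown to differ between genotypes, and the same holds of Sesn1 and Sesn3. Markers of other cells also differed in their response by this test. The endothelial sum was 45.5 FPKM in knockout and 59.6 FPKM in wild-type livers after tunicamycin, against 67.3 FPKM in knockout and 38.2 FPKM in wild-type livers after DMSO, and the difference was called for 5 of the 6 endothelial genes. It was called for 2 of 6 stellate genes, for 3 of the 3 skeletal muscle and 2 of the 4 adrenal cortex genes that could be tested, and for none of 5 Kupffer cell and 4 hepatocyte genes, and no fat gene could be tested. Among those called, Acta1 and Star had knockout responses that the authors' own test did not call (q = 0.169 and q = 0.222). The derived standard error does not match the deposited p for these 2 genes, nor for Tnni2. The z test gave the Tnni2 difference an adjusted p of 1.48e-05, yet its knockout response had a deposited Cuffdiff p of 0.00415. The difference calls of Acta1, Star and Tnni2 are therefore not secure. The part of these cell types in the members' differences was not tested.

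The pathway around these genes changed gene by gene rather than in 1 direction. Of 68 further genes of the mTORC1 pathway, in 7 lists, 67 were tested: tunicamycin raised 18 and lowered 13 in knockout livers, and raised 18 and lowered 16 in wild-type livers. That was 46.3% of the 67 in knockout and 50.7% in wild-type livers, against 33.0% and 37.1% of all loci tested. The median log2 fold was -0.00 in knockout and 0.09 in wild-type livers. Between genotypes 1 was higher and 3 were lower in the knockout under tunicamycin, and 1 was higher and none was lower under DMSO. These shares, 5.97% under tunicamycin and 1.49% under DMSO, stand beside 5.92% and 2.86% of all loci tested. The medians there were -0.06 and -0.07.

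In the mTOR complexes (9 genes) the kinase Mtor was higher with tunicamycin by 0.67 in knockout and 0.84 in wild-type livers in the authors' deposited table. Rptor, the scaffold of mTORC1, fell by 0.56 in wild-type livers, and its fold of -0.21 in knockout livers was not called (deposited q = 0.541). For Rptor the difference of the responses was not called, so its fall is not shown to differ between genotypes. The assembly factor Telo2 was called in knockout livers, with 0.68 in knockout and 0.41 in wild-type livers in the authors' deposited table, and the difference of the responses was not called. Of 13 genes of the TSC, Rheb and growth factor branch, tunicamycin raised 2 and lowered 5 in knockout livers, and raised 3 and lowered 5 in wild-type livers. Rheb, the GTPase that activates mTORC1, rose by 0.87 in knockout and 0.81 in wild-type livers in the authors' deposited table. Tsc1, a subunit of the complex through which DDIT4 acts, had -0.66 and Irs1, an adaptor of the insulin receptor, had -0.86 in knockout livers, against -0.73 and -0.74 in wild-type livers, all called in the authors' deposited table. Irs2, the other main insulin receptor adaptor of liver, had 2.71 FPKM in knockout and 4.79 FPKM in wild-type livers after tunicamycin, against 4.78 FPKM in knockout and 4.80 FPKM in wild-type livers after DMSO. It was the 1 gene of that branch called between genotypes under tunicamycin, at -0.82 in the authors' deposited table (q = 0.000396).

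Among 7 AMPK genes, tunicamycin raised 2 and lowered 1 in knockout livers, and raised 2 and lowered 2 in wild-type livers. The regulatory subunit Prkab2 had 5.72 FPKM in knockout and 5.09 FPKM in wild-type livers after tunicamycin, against 1.14 FPKM in knockout and 0.801 FPKM in wild-type livers after DMSO. That was a rise of 2.33 in knockout and 2.67 in wild-type livers in the authors' deposited table, while the catalytic subunit Prkaa2 fell, with -0.75 in knockout and -0.76 in wild-type livers. Of 8 Rag and Ragulator genes tested, of 9 listed, 2 rose and 1 fell in knockout livers and 2 rose and 2 fell in wild-type livers. The GTPase Rraga rose by 0.90 in knockout and 0.69 in wild-type livers, and the Ragulator subunit Lamtor4 fell, with -0.76 in knockout and -1.09 in wild-type livers, in the authors' deposited table.

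Of 13 genes of the GATOR complexes, KICSTOR and amino acid sensors, 5 rose and 1 fell in knockout livers and 4 rose and 2 fell in wild-type livers. The GATOR2 subunit Mios, part of the complex that sestrins bind, rose by 1.24 in knockout and 1.35 in wild-type livers in the authors' deposited table. Itfg2, of the KICSTOR complex, rose by 1.06 in knockout and 1.16 in wild-type livers, and Depdc5, a subunit of GATOR1, fell, with -0.98 in knockout and -1.11 in wild-type livers, in the authors' deposited table. Gatsl2 was called higher in knockout than in wild-type livers under tunicamycin, at 1.24 in the authors' deposited table, with 0.807 FPKM in knockout and 0.341 FPKM in wild-type livers, both under the minimum of 1 FPKM at which it is no longer called. The folliculin partners and TFE factors (5 genes) were all called in both genotypes, 3 higher and 2 lower. Fnip2, which binds folliculin, had -1.85 in knockout and -2.04 in wild-type livers in the authors' deposited table. Tfeb, a transcription factor of lysosomal genes that mTORC1 holds in the cytosol, had -1.14 in knockout and -1.44 in wild-type livers, and its relative Mitf rose by 1.75 in knockout and 1.85 in wild-type livers, in the authors' deposited table.

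Of 12 mTORC1 substrates and cap-binding genes, 2 rose and 3 fell in knockout livers and 3 rose and 2 fell in wild-type livers. Grb10, an adaptor that dampens insulin signalling and is an mTORC1 substrate, had 5.49 FPKM in knockout and 12.0 FPKM in wild-type livers after tunicamycin, against 1.43 FPKM in knockout and 1.13 FPKM in wild-type livers after DMSO. Its rise was 1.95 in knockout and 3.41 in wild-type livers in the authors' deposited table, and the difference of the responses from those statistics was called at -1.47 (adjusted p = 0.0170). Lpin1, a phosphatidate phosphatase and mTORC1 substrate, had 63.1 FPKM in knockout and 108 FPKM in wild-type livers after tunicamycin, against 128 FPKM in knockout and 53.2 FPKM in wild-type livers after DMSO. In the authors' deposited table tunicamycin moved it by -1.02 in knockout and by 1.02 in wild-type livers, and the difference was called at -2.04 (adjusted p = 1.91e-07). Lpin1 was the 1 gene of the 67 called between genotypes under DMSO, at 1.26 in the authors' deposited table, a comparison that lane cannot be told apart from.

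**Figure D5:**
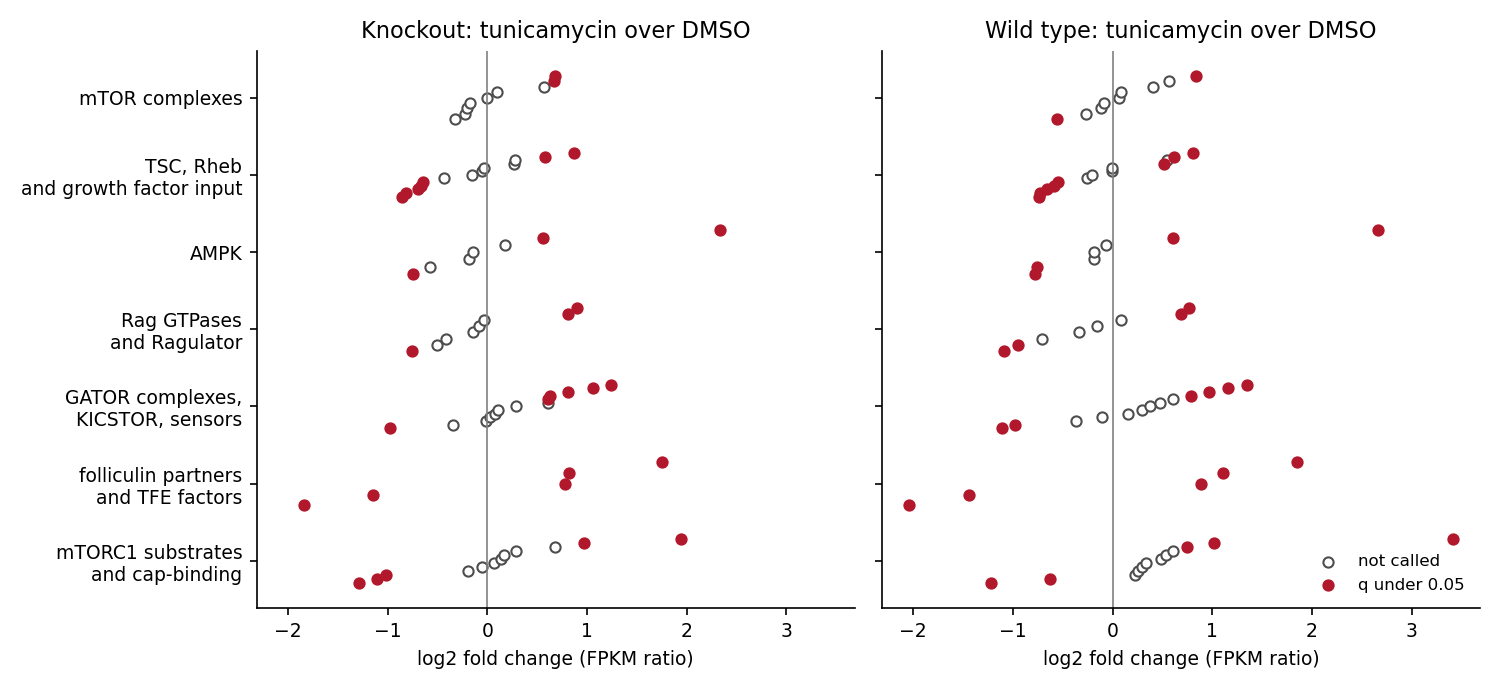
Deposited log2 folds of tunicamycin over DMSO for the tested genes of the 7 mTORC1 pathway lists, 1 point per gene and 1 row per list, with knockout livers in the left panel and wild-type livers in the right. Filled points had a q under 0.05 and lie on both sides of 0 in most rows, and the rightmost point of the lowest row is Grb10, at 1.95 in knockout and 3.41 in wild-type livers.

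Genes chosen to read out ATF4 and p53 give the setting of the 3 known ATF4 targets and of Sesn1 and Sesn2, which are known p53 targets. Of 6 ATF4 target genes, 4 were lower and none higher in the knockout under tunicamycin, where 2.19% of all loci tested were called lower. Asns had -2.57, Psat1 -2.30 and Chac1 -2.10 in the authors' deposited table. Those folds were larger than the -1.24 of Ddit4, and that of Atf3, the other one called, was -0.60 in the authors' deposited table. Trib3 and Ddit3 were not called, as Sesn2 was not. Of 9 p53 target genes, 7 were higher and none lower in the knockout under tunicamycin and 8 were higher under DMSO, beside 3.73% of all loci tested that were called higher under tunicamycin and 1.39% under DMSO. The 8 under DMSO became 3 with q adjusted within that comparison and 4 with q under 0.01. The ATF4 and p53 lists were both chosen with earlier results of these data known, so their directions are no independent evidence. The medians of the p53 list were 1.05 under tunicamycin and 0.92 under DMSO, against the -0.08 and 0.52 of Sesn2 and the -0.09 and -0.34 of Sesn1.

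By distance between centred profiles on log2(FPKM + 1) over the 4 groups, among 11202 loci, the genes nearest to Ddit4 were Coro2a (0.260), Mxd1 (0.281) and Grb10 (0.286). Nearest to Sesn2 were Fdps (0.0606), an enzyme of isoprenoid synthesis, Arhgef2 (0.0767) and Unc13b (0.136). Nearest to Eif4ebp1 were Yars (0.0868), the cytosolic tyrosyl-tRNA synthetase, Wdr81 (0.273) and Hax1 (0.309). Nearest to Deptor was Cnpy2 (0.0187), to Flcn Camsap3 (0.0147), to Sesn1 Psma4 (0.0151) and to Sesn3 Adra1a (0.0120). With 4 points per profile such likeness is a description only, and with a pseudocount of 0.1 none of the 3 nearest genes was shared for Ddit4, Sesn2, Sesn3 and Flcn.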

How the data were processed

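Per the labels' protocols, RNA was extracted with TRIzol, ERCC spike-ins were added and poly(A) libraries were made. Per the submitters' processing notes, bcl2fastq, TopHat2 2.0.4, Cufflinks and Cuffdiff were used with mm9. The authors deposited 1 table of 6 comparisons, of which 4 were used. Its expression values are FPKM, pooled over the 3 libraries of a group. The authors' fold is a log2 of the FPKM ratio, and their test statistic is a score. The deposited q-value equalled a Benjamini-Hochberg adjustment of the deposited p-value over 90828 tests, to within 5.29e-07, and the smallest q it can give here is 0.000396.

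A locus was called where its status was OK and q was under 0.05. The standard error of a fold was |log2 fold| / (|statistic| x scale). The scale (1.73 to 1.74 in the 4 comparisons) was the median factor that makes the statistic match the deposited p, over loci with p between 0.001 and 0.9. This match does not hold at every locus. For Star the deposited Cuffdiff p with tunicamycin in knockout livers was 0.0827, yet the z test gave its difference of responses an adjusted p of 4.80e-16. The difference of responses was a two-sided z test, adjusted over 14510 loci. It was run on simulated data whose errors were drawn with the same derived standard errors, so that run cannot show whether those standard errors are right. The z test takes the comparisons' errors as independent. No count test was possible, and no value per library was used. The FPKM scale takes transcript length into account, but a merged locus cannot be divided among its genes.

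Members, lists and tests were chosen with earlier results of these data known. Genes of a list were eligible to be named where called with the largest folds, up to 3 per list and comparison; others named were chosen after their values were seen. All 83 pathway symbols and 42 of 43 marker symbols matched a locus. RefSeq promoters matched 6 of 8 members (Eif4ebp1 and Deptor are named only), in GRCm38.p6, whose coordinates are not those of mm9. Alternatives were a q under 0.01, a q adjusted within the comparison, a minimum of 1 FPKM in the higher group, pseudocounts of 1 and 0.1, centring on all loci, the other Eif4ebp1 locus, unscaled statistics and, chosen after seeing the data, both Eif4ebp1 loci summed. Scripts ran in Python 3.11.15; tables used pandas 2.3.3 and numpy 2.4.6, tests scipy 1.17.1 and plots matplotlib 3.10.9.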

Additional observations from a re-analysis of the deposited data

Results flagged for a closer look

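These genes, none of them among the 8, were picked out because the tunicamycin response differed between genotypes by the z test on the authors' deposited statistics (adjusted p under 0.05), as knockout minus wild-type log2 fold. In the mTORC1 lists the differences were -1.47 for Grb10 and -2.04 for Lpin1. Among p53 targets they were 3.33 for Eda2r and 2.76 for Phlda3, and among ATF4 targets -1.59 for Chac1 and -2.10 for Psat1. Among endothelial markers they were -1.34 for Stab1, -1.17 for Stab2, -1.29 for Kdr, -1.02 for Cdh5 and -1.25 for Lyve1. Among stellate markers Acta2 had -2.07 and Des 1.75. Muscle markers had 5.82 for Tnni2, 5.41 for Acta1 and 5.11 for Mylpf, and adrenal markers 5.72 for Akr1b7 and 8.41 for Star. The knockout responses of Acta1 and Star were not called by the authors' own test, so the differences of these genes are not secure. That of Tnni2 is not secure either, since its derived standard error does not match its deposited p. For comparison, the 8 genes had differences with no call, that of Ddit4 being -1.05.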

How the results depend on the processing

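The counts of members called in each comparison stayed within 1.5 times of those reported under each alternative run, and no member's direction reversed. With q under 0.01 the calls of Sesn1 with tunicamycin in wild-type livers (-0.58) and of Deptor between genotypes under tunicamycin (-0.57) were lost, and Deptor's was also lost with q adjusted within that comparison. The call of Eif4ebp1 between genotypes under tunicamycin was lost at its other locus (-1.08). The 8 p53 targets called higher in the knockout under DMSO became 3 with q adjusted within the comparison and 4 with q under 0.01. The cause was not tested. With both Eif4ebp1 loci summed, the shares and ratios given beside the single-locus values were higher. Gatsl2 was not called with a minimum of 1 FPKM in the higher group. No paired analysis was possible because 1 pooled value per group was deposited and the labels give no replicate numbers, and for the same reason no library could be left out. Depth per library is unknown, so a gene with no call, Rragd under 1 FPKM above all, may still have changed.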

Other observations

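Ddit4l, a paralog of Ddit4 whose product REDD2 also lowers mTORC1 activity, was picked after its values were seen. It had 1.15 FPKM in knockout and 0.245 FPKM in wild-type livers after tunicamycin, against 4.45 FPKM in knockout and 2.35 FPKM in wild-type livers after DMSO. Both tunicamycin groups were below both DMSO groups, the opposite of Ddit4. In the authors' deposited table it fell, with log2 folds of -1.96 in knockout and -3.26 in wild-type livers (q = 0.000396 each). Between genotypes it was higher in the knockout by 2.23 under tunicamycin (q = 0.000747) and by 0.92 under DMSO (q = 0.0182) in the authors' deposited table, and the difference of the responses was 1.31 (adjusted p = 0.529).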
